A study of Mus musculus with 18 samples.

Results

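RNA held by ribosomes of endothelial cells was compared with the RNA of whole choroid, the vascular layer of the eye between the retina and the sclera. The comparison took 3 Choroid Positive and 3 Choroid Input libraries, 6 of the 18 libraries of the series, and every one of the 7569 genes in the choroid table. The other 12 libraries are Input and Positive fractions of brain and retina. Every group, Input included, came from mice of the genotype Cdh5(PAC)-cre/ERT2+; NuTRAP+ that had been induced with tamoxifen. Cdh5(PAC)-cre/ERT2 is a recombinase under the promoter of Cdh5, the gene of vascular endothelial cadherin, which becomes active after tamoxifen. NuTRAP is a reporter that, once recombined, puts GFP on the ribosomal protein L10a. Choroid tissue was homogenised with cycloheximide, which holds ribosomes on their RNA, and part of the cleared homogenate was set aside as Input. The rest was incubated with an antibody against GFP, and the RNA on the beads is the Positive fraction. The model therefore marks whichever cells expressed the Cdh5 driver, lymphatic and arterial endothelium among them, and no unrecombined control group was used here. The labels name 3 biological replicates without the number, age or sex of the animals, so the p-values here reflect sample-to-sample spread, part of which may be technical.

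Choroidal vessels end in the choriocapillaris, a bed of wide capillaries with pores (fenestrae) that lies against the pigment epithelium and supplies the outer retina. Its endothelium lacks the tight barrier of the vessels of the brain and inner retina, and it depends on vascular endothelial growth factor (VEGF) made by the neighbouring pigment epithelium. Between the vessels lie melanocytes, fibroblasts, mural cells, macrophages, nerves and smooth muscle.

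The libraries were shallow. Listed genes summed to between 2018126 and 10031274 estimated counts in Input and to 2717264, 713733 and 1679648 in Positive replicates 1, 2 and 3. Positive replicate 2 stood apart: Rn45s, the ribosomal RNA precursor, took 13.0% of its counts and Lars2, which encodes the leucyl-tRNA synthetase of mitochondria, 3.71%, against at most 1.09% and 0.123% in the other 5 libraries. Its log2 levels correlated at 0.847 and 0.863 with the other Positive libraries, which correlated at 0.933 with each other, while Input libraries correlated with each other at 0.895 to 0.950. A first principal component with 72.3% of the variance separated Input from Positive, and the second, with 15.2%, separated Positive replicate 2 from the other Positive libraries. Values that depend on it are given with and without it. The deposited table lists a gene where it had at least 50 counts in every library of 1 fraction. Of the 7569 genes, 2993 met this in both fractions, 4439 in Input alone and 137 in Positive alone. A gene listed through 1 fraction alone had to be low in at least 1 library of the other, so its change is partly set by the listing, and counts are given by how genes were listed where that matters.

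Levels are CPM, the usual rate of counts per library, with library sizes scaled by TMM, and a change is the fitted log2 ratio of Positive over Input with its standard error (SE). Genes passed at a Benjamini-Hochberg adjusted p under 0.05 in edgeR's quasi-likelihood test over all listed genes. Of the 7569 genes 1236 (16.3%) were higher and 1531 (20.2%) lower in Positive, together 36.6%. Among genes at 50 counts or more in all 6 libraries 991 of 2993 (33.1%) were higher and 296 (9.89%) lower, together 43.0%. Among those listed through Input alone the shares were 2.77% and 27.8%, together 30.6%, and of the 137 listed through Positive alone 89.1% were higher. In 1731 genes (22.9%) every Positive library lay above every Input library, and in 2026 (26.8%) every Positive library lay below. The median change of all listed genes was -0.01. Over all listed genes, 129 rose by 2.5 or more on the log2 scale and 23 by 3 or more, against 394 and 224 that fell by as much. These counts were not split by listing and are partly set by it, since 4439 genes were listed through Input alone and 137 through Positive alone. Without Positive replicate 2, 1332 genes (17.6%) were higher and 1709 (22.6%) lower, together 40.2%, and 94.8% of the calls made with 6 libraries were made again with the same sign. With the replicate numbers as a block 39.6% of genes passed. The balance of higher and lower calls moved with the scale alone. With the authors' factors 1006 genes were higher and 1627 lower, and with library totals 1032 and 1658. With DESeq2 size factors the counts were 1293 and 1486. The balance also moved when both the scale and the genes fitted were changed. Scaled and fitted on the 3130 genes at 50 or more in every Positive library, log2 changes were lower by 0.42 (median), and 712 genes were higher and 649 lower, in place of 1113 and 296 of the same genes. Restricted to the upper 3785 genes by level, the fit gave 860 and 946, in place of 1015 and 739.

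**Figure D1:**
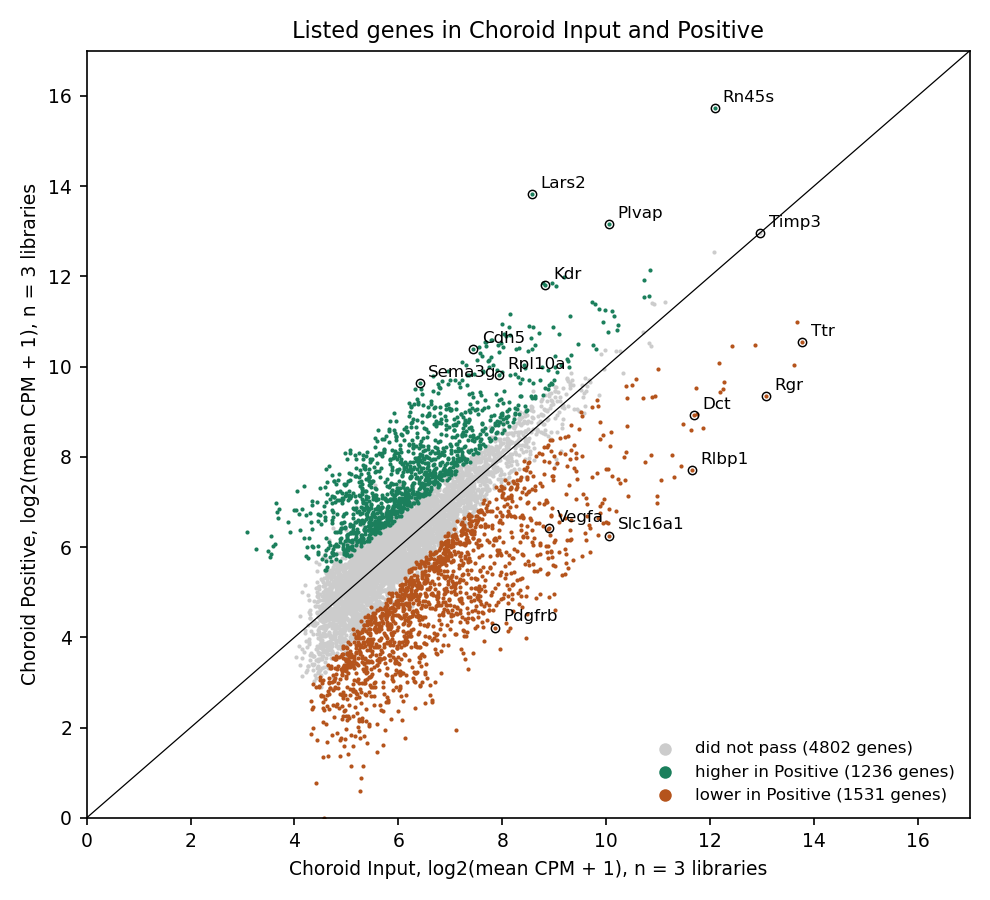
Mean level of each listed gene in the 3 Choroid Input libraries (x axis) and the 3 Choroid Positive libraries (y axis), both as log2(mean CPM + 1), coloured by the call, with the diagonal marking equal levels. Plvap, Kdr and Cdh5 lie above the diagonal, Rlbp1, Rgr, Slc16a1 and Pdgfrb lie below it, Timp3 lies on it, and the heights of Rn45s and Lars2 come from Positive replicate 2.

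The gene of the driver and the gene of the tagged protein were looked at first. Cdh5 (Entrez 12562, chromosome 8, 104101613 to 104144504 on GRCm38) stood at 201, 105 and 213 CPM in the Input libraries and at 1573, 1071 and 1351 CPM in the Positive libraries. Each Positive value was above every Input value, and the log2 change was 2.94 ± 0.29 (SE, n = 3 per group) with an adjusted p of 1.56e-05. Rpl10a, the gene of the ribosomal protein that carries the tag, stood at 248, 245 and 239 CPM in Input and at 775, 980 and 939 CPM in Positive. It rose by 1.88 ± 0.20 (adjusted p = 1.88e-05), the largest change of the 83 listed ribosomal protein genes. Whether its reads come from the endogenous gene or from the reporter was not tested.

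Pan-endothelial genes rose as a block. All 19 listed members passed the test as higher, 18 of them among the genes listed in both fractions, with changes from 1.61 for Ramp2 to 3.07 for Sox18 and a median of 2.79. Together they took 0.472%, 0.285% and 0.439% of the listed counts of Input and 2.75%, 2.00% and 2.82% of those of Positive, so the share was lowest in replicate 2 of both fractions. In whole-tissue libraries like these, fewer cells of a type and less RNA per cell cannot be told apart. Pecam1, an adhesion molecule of endothelial junctions, stood at 236, 121 and 203 CPM in Input and 1510, 1171 and 1455 CPM in Positive (log2 2.88 ± 0.27). Cldn5, the main tight junction claudin of vessels, had the most even Positive values of the group, 1539, 1545 and 1546 CPM, above 236, 231 and 196 CPM in Input (2.80 ± 0.20). Input replicate 2 was the lowest Input library for 16 of the 19 genes, as in Kdr at 225 CPM against 567 and 573 CPM.

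Tie1, an orphan receptor that partners Tek, was among the 15 largest increases and is shown with the sequence before its start site. It is an example picked from these 15, and the promoters of the others are not shown. The 150 bases come from RefSeq (GRCm38.p6, chr4:118489850-118489999, minus strand, written 5′ to 3′ on the gene's strand), with the core of the ETS family of transcription factors in capitals.
Tie1: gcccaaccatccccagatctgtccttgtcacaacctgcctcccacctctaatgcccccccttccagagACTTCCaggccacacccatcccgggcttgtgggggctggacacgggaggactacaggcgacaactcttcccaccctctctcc
The capitals are the reverse complement of GGAAGT. Both strands were searched for 6 short motifs, none of which contains another: GGAAGT (ETS), AACAAT (SOX), GTAAACA (forkhead), TAATCC (OTX and CRX), CACGTG and CATGTG (E-boxes). Within 250 bases before the start, 6 of 16 promoters of pan-endothelial genes (37.5%, from the 12 genes that matched) held GGAAGT, against 22.3% of 7966 promoters of listed genes and 0 of 12 promoters of endothelial transcription factors. The share among genes that rose by at least 2 on the log2 scale was 20.8%, no higher than that of all listed genes. A match is a description of the letters and not a bound site.

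Genes of fenestrated endothelium rose with the pan-endothelial ones. Plvap (Entrez 84094, chromosome 8, 71497753 to 71511806 on GRCm38), which forms the diaphragms that span fenestrae, stood at 1287, 661 and 1237 CPM in Input and at 9815, 9459 and 8236 CPM in Positive. The groups did not overlap, the change was 3.11 ± 0.32 (8.63-fold, adjusted p = 1.79e-05), and Plvap had the highest Positive level per kilobase of exon among the genes that rose, 4615 CPM per kilobase. Igfbp3, which binds insulin-like growth factors, stood at 501, 343 and 477 CPM in Input and 3937, 3951 and 3212 CPM in Positive (3.07 ± 0.25). Esm1, a proteoglycan gene of VEGF-stimulated endothelium, went from 99.4, 55.9 and 82 CPM to 624, 807 and 728 CPM (3.17 ± 0.25). Of the 9 listed genes of this group 7 rose, 6 of them among the genes listed in both fractions. Gpihbp1, which carries lipoprotein lipase across the endothelium, had the largest change, 3.34 ± 0.37, and was listed through Positive alone. Car4, a carbonic anhydrase of the choriocapillaris, was scattered, at 18.4, 38.8 and 6.56 CPM in Input and 76.8, 23.9 and 43.5 CPM in Positive. Its change was 1.31 ± 0.58 (adjusted p = 0.0999), and it passed without Positive replicate 2 (1.61, adjusted p = 0.0417). Ehd3, an ATPase of the membrane, was at -0.16 ± 0.29 and did not pass.

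Arterial and venous genes both rose, with a few exceptions in each direction. Of 11 listed arterial genes 9 were higher. Sema3g, a semaphorin of arterial endothelium, stood at 117, 26.0 and 110 CPM in Input and 734, 676 and 979 CPM in Positive (3.22 ± 0.44). Dll4, a Notch ligand, rose by 2.96 ± 0.28 and Unc5b, a netrin receptor, by 2.75 ± 0.34, both listed through Positive alone. Gja4 and Hey1, also listed through Positive alone, and Gja5 and Efnb2 rose by 2.25 to 2.45. Jag1 was at 0.02 ± 0.30. Fbln5, an elastic fibre gene that matrix-producing cells also make, was the 1 member that fell (-0.77 ± 0.25, adjusted p = 0.0289), a call that was lost without Input replicate 3 or without Positive replicate 1 or 3. Of 7 venous genes 5 were higher, among them Vwf, the von Willebrand factor gene, at 321, 129 and 159 CPM in Input and 1970, 1230 and 1247 CPM in Positive (2.87 ± 0.35). Nr2f2, a transcription factor of veins that stromal cells also express, fell from 137, 132 and 114 CPM to 73.5, 47.7 and 45.2 CPM (-1.18 ± 0.26, adjusted p = 0.00333). Of the lymphatic list only Flt4 and Pdpn were listed. Flt4, the VEGF-C receptor gene, which fenestrated blood vessels use too, rose by 2.88 ± 0.31, and Pdpn, a mucin gene that epithelia share, fell by 3.66 on the log2 scale. Prox1 and Lyve1, which define lymphatic endothelium, were not among the listed genes.

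Of 16 listed endothelial transcription factors 14 were higher, 10 of them listed in both fractions and 4, Sox7 and Gata2 among them, through Positive alone. The SOXF genes Sox18 and Sox7 rose by 3.07 ± 0.21 and 2.79 ± 0.44, Gata2 by 2.79 ± 0.34 and the ETS gene Erg by 2.65 ± 0.24. Erg was even within groups, at 46.6, 29.0 and 46.0 CPM in Input and 270, 239 and 264 CPM in Positive. Klf2 and Klf4, which respond to blood flow, rose by 2.54 ± 0.23 and 2.38 ± 0.33. Klf2 stood at 295, 201 and 259 CPM in Input and 1692, 1327 and 1367 CPM in Positive. The smallest increase was that of Epas1, the hypoxia-inducible factor of endothelium, at 1.19. Foxc1, at 0.35, did not pass, and Nr2f2, described with the venous genes, was the 1 factor that fell.

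The VEGF and angiopoietin pathways split by role: 10 of 15 listed genes were higher and 5 lower. Of the 15, 9 were listed in both fractions (8 higher, 1 lower), 5 through Input alone and 1 through Positive alone. The groups did not overlap in any of the 15. Over all listed genes every Positive library lay above every Input library in 22.9% and below in 26.8%. The receptors were on the higher side. Kdr, the main signalling receptor for VEGF, stood at 567, 225 and 573 CPM in Input and 4158, 2660 and 3901 CPM in Positive (2.97 ± 0.36, adjusted p = 5.47e-05). Flt1, which also binds placental growth factor, went from 361, 182 and 295 CPM to 2209, 1454 and 1990 CPM (2.75 ± 0.29). The angiopoietin receptor Tek rose by 2.74 ± 0.25, Tie1 by 3.01 ± 0.29 and Ptprb, a phosphatase that acts on Tek, by 2.38. The co-receptors rose less, Nrp1 by 1.89 ± 0.24 and Nrp2 by 0.86 ± 0.25, and the call of Nrp2 was lost with the authors' scaling factors (adjusted p = 0.0501), with scaling on genes at 50 or more in every Positive library (0.157) and without Positive replicate 1 (0.0574).

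Most ligands were on the lower side. Vegfa stood at 394, 517 and 513 CPM in Input and 66.2, 85.9 and 102 CPM in Positive (-2.49 ± 0.23, adjusted p = 1.07e-05). Vegfb (-2.59 ± 0.28), Pgf, the gene of placental growth factor (-3.44 ± 0.40), and Angpt1, the angiopoietin made by mural and stromal cells (-2.89 ± 0.36), fell too, and all 3 were listed through Input alone. Angpt1 stood at 150, 68.7 and 161 CPM in Input and 19.7, 17.5 and 13.9 CPM in Positive. Svep1, a matrix protein that binds angiopoietins, fell by 1.76 on the log2 scale (adjusted p = 0.0332), a call lost without any of the 3 Input libraries and without Positive replicate 1. The exceptions among ligands were Angpt2, which endothelium itself stores and releases (2.07 ± 0.35), and Vegfc (1.27 ± 0.31). Angpt2, listed through Positive alone, stood at 22.5, 9.81 and 25.5 CPM in Input and 73.1, 87.5 and 91 CPM in Positive.

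**Figure D2:**
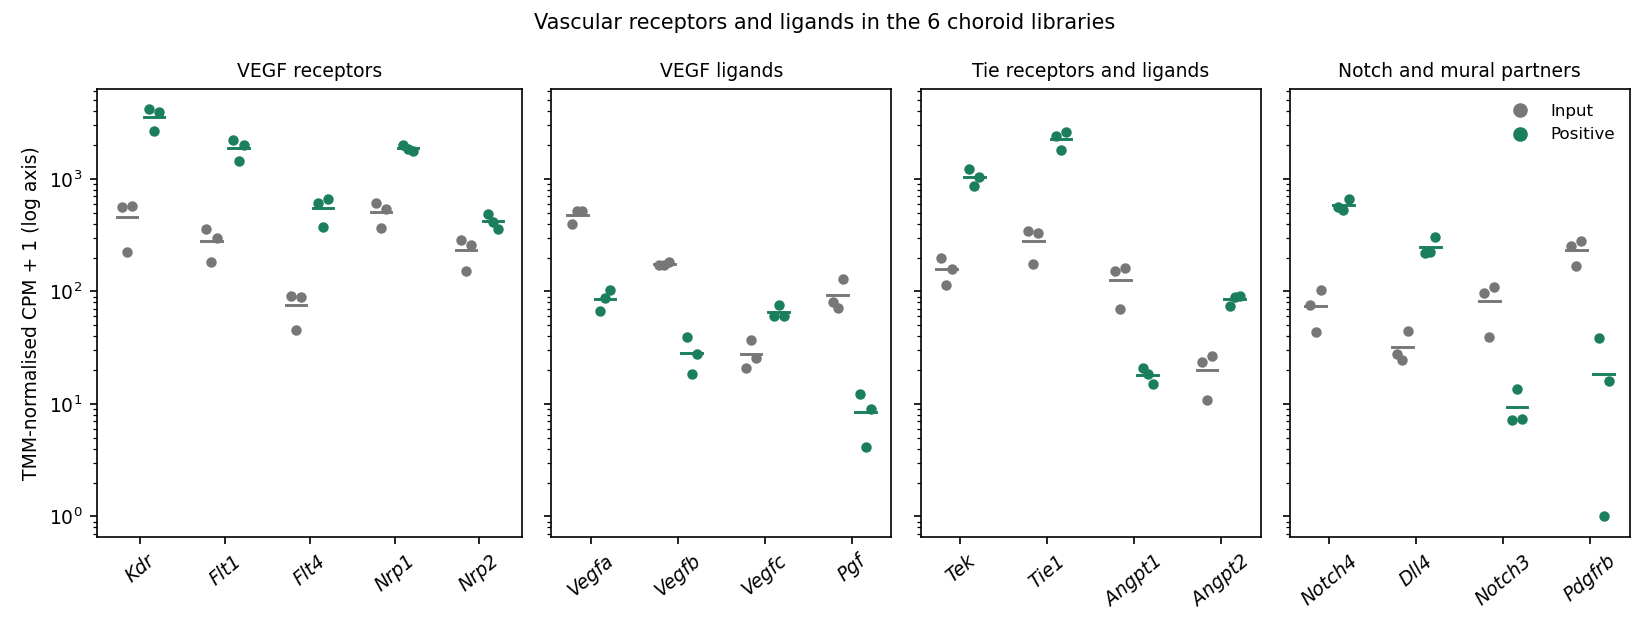
Level of vascular receptor and ligand genes in each of the 3 Input (grey) and 3 Positive (green) libraries, as CPM + 1 on a log axis, with the group mean as a bar. Kdr, Flt1, Flt4, Tek, Tie1, Notch4 and Dll4 lie higher in Positive, Vegfa, Vegfb, Pgf, Angpt1, Notch3 and Pdgfrb lie lower, and Pdgfrb is at 0 in Positive replicate 2.

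In the Notch and BMP pathways 13 of 16 listed genes were higher. Notch4, the Notch receptor of endothelium, went from 74.2, 42.2 and 103 CPM to 560, 527 and 657 CPM (2.97 ± 0.30), and Notch1, which many cells express, rose by 1.46 ± 0.34. The ligand gene Jag2 rose by 2.89 ± 0.24. On the BMP side the receptor genes Eng and Acvrl1 rose by 2.79 and 2.40 and the target genes Id1, Smad6, Smad7 and Id3 by 1.77 to 2.66. Bmp4, a ligand made by pigment epithelium, stood at 339, 554 and 435 CPM in Input and 74.2, 113 and 74.8 CPM in Positive (-2.37 ± 0.26). Bmp6 rose by 0.79, a call lost without Input replicate 2 or without Positive replicate 1 or 3.

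Caveolae are flask-shaped pits of the endothelial membrane, and all 8 listed caveolae genes were higher and listed in both fractions, with a median of 2.13. Cav1, the main caveolin, stood at 138, 94.2 and 138 CPM in Input and 563, 586 and 568 CPM in Positive (2.20 ± 0.21). The cavin genes Ptrf, Sdpr and Prkcdbp (Cavin1, Cavin2 and Cavin3) rose by 1.37, 2.12 and 2.15, and Ehd4 by 2.62. Pacsin2 had the smallest change, 0.58, and its call (adjusted p = 0.0494) was lost without any 1 of the 6 libraries and with the authors' factors or library totals as the scale.

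Genes that carry the blood-brain and blood-retina barrier were split. Of 19 listed, 4 were higher and 7 lower, beside 16.3% and 20.2% of all listed genes. Their median was 0.07, beside a median of -0.01 over all genes. The 8 listed in both fractions held 3 of the higher calls and 1 lower call, that of Slc16a1. Over all genes listed so, 33.1% were higher and 9.89% lower. The other 6 lower calls were among the 10 genes listed through Input alone, a class in which 27.8% were lower over the whole table. The efflux pump genes Abcb1a and Abcg2 rose by 2.13 ± 0.28 and 2.25 ± 0.32, the taurine transporter gene Slc6a6 by 1.29 ± 0.24 and Itm2a by 1.28 ± 0.31. Of these, Abcg2 was listed through Positive alone. Slc2a1, the glucose transporter of barrier vessels and of pigment epithelium, stood at 1065, 1344 and 1280 CPM in Input and 1170, 1052 and 1653 CPM in Positive. Its groups overlapped and its change was 0.07 ± 0.23 (adjusted p = 0.836). Mfsd2a, a lipid transporter that restrains vesicle traffic at the barrier, was low throughout, at 26.3, 71.2 and 30.5 CPM in Input and 7.68, 3.18 and 12.2 CPM in Positive (-2.32 ± 0.53, adjusted p = 0.00438). Slc16a1, a monocarboxylate transporter, fell from 726, 1393 and 1088 CPM to 70.6, 110 and 45.2 CPM (-3.88 ± 0.35). The thyroid hormone transporter Slco1c1 fell by 3.07 and the transferrin receptor Tfrc by 2.28 on the log2 scale, both listed through Input alone. Pigment epithelium is known to express Slc16a1 and Slc2a1 as well, and its marker genes moved in the same direction as Slc16a1. The part of those cells in the values of barrier genes was not tested.

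Further groups of endothelial function differed in how many members rose. Of 11 Wnt and Norrin genes 5 rose: Tspan12, a co-receptor for Norrin, by 2.49 ± 0.31 (63.8, 23.1 and 42.6 CPM to 247, 235 and 251 CPM), Lrp5 by 1.64, Fzd6 by 1.51, Reck by 0.76 and Ctnnb1 by 0.73. Tspan12 was listed through Positive alone. Fzd4, the receptor for Norrin, was at 0.22 ± 0.36 and did not pass. With the authors' factors or library totals alone, 3 of these 11 genes passed, and Reck and Ctnnb1 lost their calls without Input replicate 3. Of 14 vasoregulation genes 10 rose. Ramp3, a partner of the adrenomedullin receptor, stood at 43.5, 46.1 and 53.8 CPM in Input and 311, 403 and 452 CPM in Positive (3.01 ± 0.22). S1pr1, a sphingosine-1-phosphate receptor, rose by 2.63 ± 0.23, Ace, the angiotensin-converting enzyme, by 2.56 ± 0.24, and Nos3, the endothelial nitric oxide synthase, by 2.51 ± 0.22. Ptgis, prostacyclin synthase, fell by 0.92 on the log2 scale. Adm, the adrenomedullin ligand gene, was at -1.70 ± 0.62 with an adjusted p of 0.0493, and 7 of the alternatives moved it over the threshold.

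Of 10 coagulation genes 8 rose, among them the platelet-tethering gene Vwf and Thbd, thrombomodulin, which turns thrombin to an anticoagulant role (210, 183 and 107 CPM to 429, 291 and 339 CPM, 1.10 ± 0.26). Procr and Plat, at 0.65 and -0.37, did not pass. Of 11 leukocyte adhesion genes 10 rose, from Cd47 at 0.89, whose call needed each of Input 1, Input 3, Positive 1 and Positive 2, to Esam at 2.95. Podxl, a sialomucin, stood at 714, 266 and 591 CPM in Input and 4174, 2654 and 3688 CPM in Positive (2.74 ± 0.35). Vcam1, an adhesion molecule for leukocytes, lay higher in every Positive library, at 128, 116 and 136 CPM against 70.1, 26.5 and 92.5 CPM. Its change of 0.99 ± 0.36 missed the threshold (adjusted p = 0.0503) and passed once replicate numbers entered the fit as a block (0.0118). All 4 listed Gimap genes, small GTPases of lymphocytes and endothelium, rose by 2.69 to 3.15, and 2 of them were listed through Positive alone.

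Antigen presentation and interferon genes differed from each other. Of 11 listed genes for MHC class I presentation 10 were higher, all 10 listed in both fractions, with a median of 1.39, lower than that of the pan-endothelial list. B2m, the light chain of class I molecules, stood at 1309, 948 and 1147 CPM in Input and 2266, 1766 and 2630 CPM in Positive (0.97 ± 0.23), and lost its call when scaled on genes at 50 or more in every Positive library (0.56, adjusted p = 0.089). Single values of H2-D1 (1.41), H2-K1 (1.65) and H2-Q4 (1.73) are uncertain, since counting can split reads between near-identical copies. Of 15 interferon-stimulated genes 5 rose and 3 fell, beside 16.3% and 20.2% of all listed genes, with a median of 0.29. Among the 7 listed in both fractions 4 were higher, beside 33.1% of all genes listed so. All 3 lower calls were among the 8 listed through Input alone, a class in which 27.8% of all genes were lower. Ifitm3, Irf1, Igtp and Ifitm2 rose by 1.09 to 1.31. Ifit3 fell from 164, 181 and 154 CPM to 50.8, 44.6 and 55.7 CPM (-1.70 ± 0.22), with Ifit1 at -1.97 and Irf7 at -1.45.

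Lipid uptake genes split in both directions, 4 higher and 5 lower of 10, and all 5 lower calls were in genes listed through Input alone. Gpihbp1, Acsl5, which activates fatty acids, Scarb1, a lipoprotein receptor, and the lipase gene Lipe rose by 1.30 to 3.34. Vldlr (-2.17 ± 0.31), Fabp5 (-2.46 ± 0.64), Cd36, a fatty acid receptor (-1.72 ± 0.47) and Lpl (-1.52) were among those that fell. Of 15 basement membrane genes 11 rose, 10 of them listed in both fractions. Col4a1 and Col4a2, the collagens of vascular basement membrane, stood together. Col4a1 went from 313, 229 and 380 CPM to 1518, 928 and 1598 CPM (2.13 ± 0.27) and Col4a2 from 218, 177 and 247 CPM to 988, 689 and 1359 CPM (2.24 ± 0.27). Lama5, a laminin chain listed through Positive alone, rose by 2.76 ± 0.35 and Hspg2, perlecan, by 2.22 ± 0.27. Sparc, Fn1, Col18a1 and Lamb1 did not pass, at -0.66 to 0.47, and Lamb1 was lower with the replicate block (adjusted p = 0.0214). In the lipid uptake list the calls of Cd36 (without Input 1 or Positive 1) and Lpl (without Input 1) rested on single libraries.

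**Figure D3:**
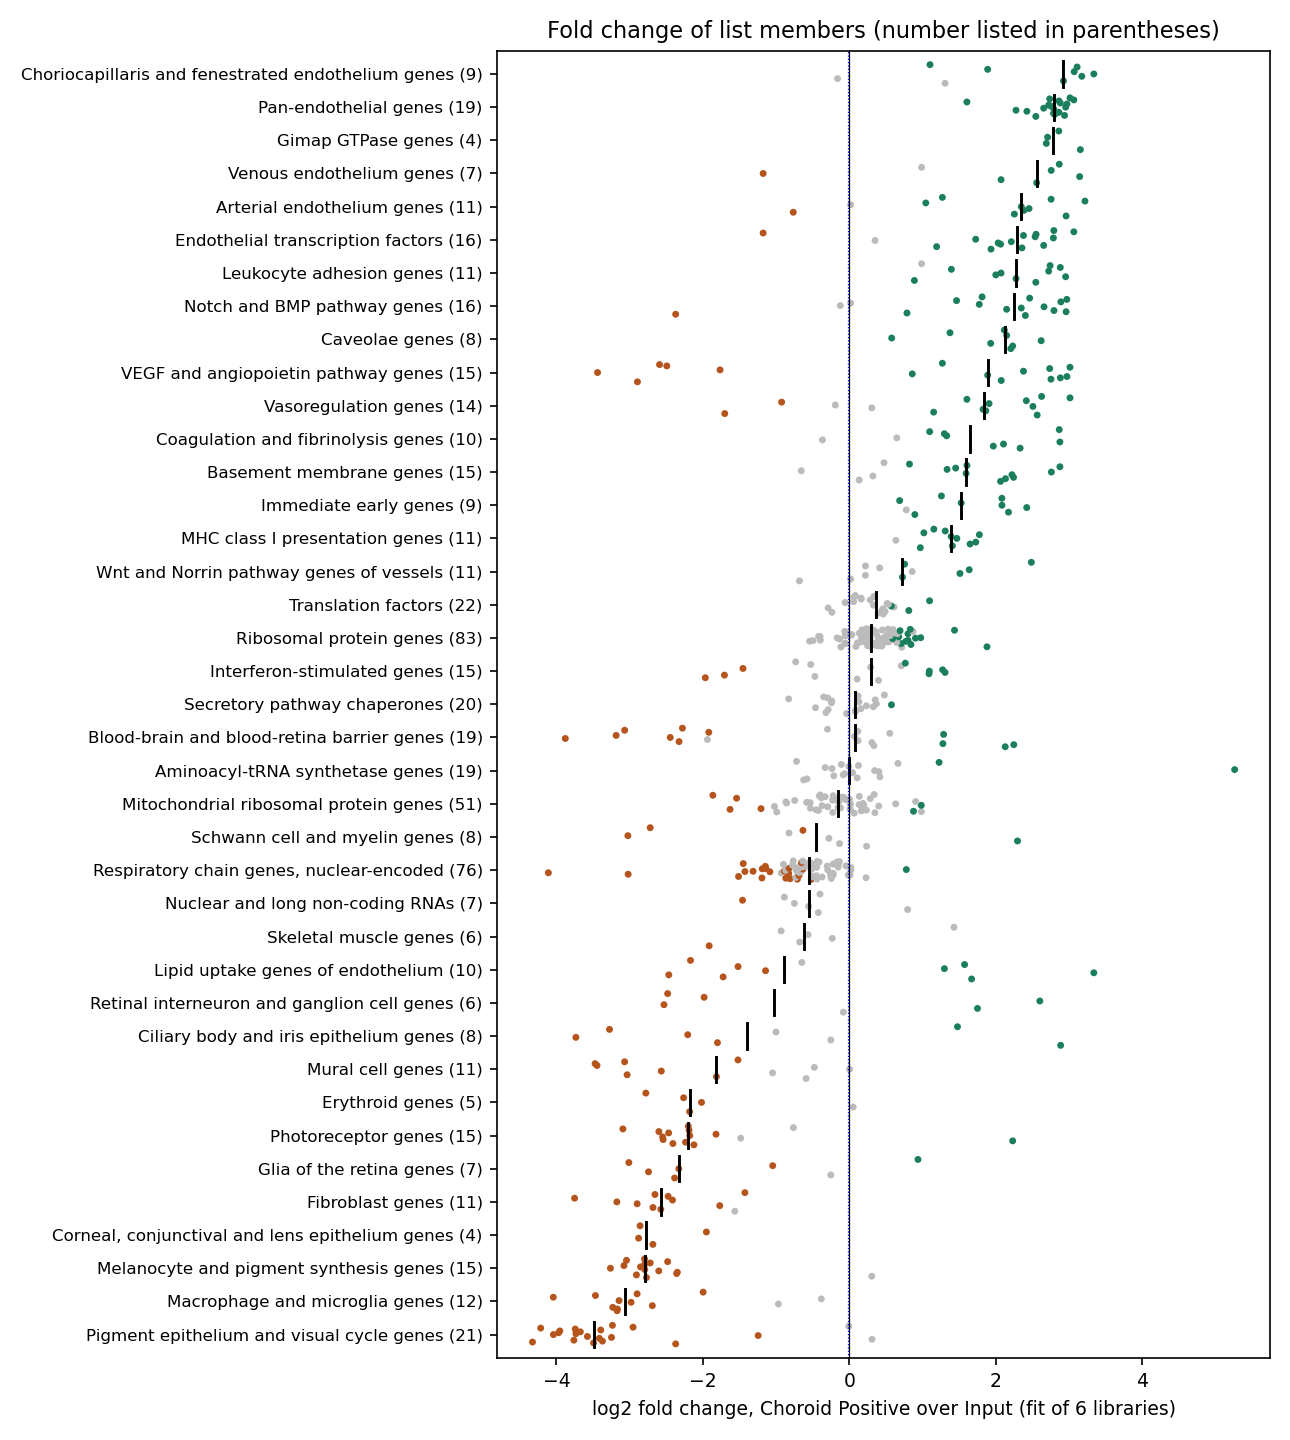
Log2 change of each listed member (points) of the gene lists with at least 3 listed members, ordered by the list's median (black bar), green for higher, orange for lower and grey for genes that did not pass, with the median of all 7569 genes as a dotted line. Fenestrated, pan-endothelial and Gimap genes have medians of 2.92, 2.79 and 2.78 and pigment epithelium, macrophage and melanocyte genes medians of -3.49, -3.06 and -2.79, with single exceptions visible in most lists.

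The 15 largest increases among well-expressed genes, Lars2 and Rn45s apart, went beyond these groups, and 5 of them (Cytl1, Kcnq1, Gimap1, Mall and Efna1) were listed through Positive alone. After Cytl1, a secreted cytokine-like gene (3.28 ± 0.44), and Sema3g came Kcnq1, a potassium channel gene, at 3.18 ± 0.41, Esm1, Gimap1, Mall, a membrane raft gene, at 3.14 ± 0.44, Fam167b at 3.11 and Plvap. Acer2, an alkaline ceramidase gene, stood at 134, 54.5 and 116 CPM in Input and 1029, 810 and 798 CPM in Positive (3.11 ± 0.31). Igfbp3, Efna1, an ephrin ligand gene (3.07 ± 0.26), Sox18, Nes, the intermediate filament nestin (3.06 ± 0.25), Ramp3 and Tie1 completed the 15. Cytl1 varied within Positive, at 125, 251 and 73 CPM against 15.1, 21.1 and 10.6 CPM in Input, and its change was 2.73 without Positive replicate 2. Among all genes listed through Positive alone St6galnac3, a sialyltransferase gene, had the largest change (3.42 ± 0.29), at 15.3, 8.83 and 10.5 CPM in Input and 122, 137 and 117 CPM in Positive. Papss2, which makes the sulfate donor of the cell, rose by 3.22 ± 0.32 and Lrg1, a glycoprotein gene of venules, by 3.14 ± 0.36.

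Ordered by Positive level per kilobase of exon, Plvap led the genes that rose. Lars2 came next (3733 CPM per kilobase), a mean set by Positive replicate 2, followed by B2m (2582 CPM per kilobase), Mgp, an inhibitor of calcification (2352), Igfbp7 (2295), Ptma (1963), Itm2b (1893), Tmsb4x (1477), Aqp1 (1397), Rpl19 (1382) and Igfbp3 (1182). The per-library Positive levels of the neighbours B2m, Mgp and Igfbp7 overlap. Aqp1, the water channel of fenestrated and other peripheral endothelia, which ciliary epithelium expresses too, stood at 625, 237 and 627 CPM in Input and 4279, 2684 and 4048 CPM in Positive (2.89 ± 0.37, adjusted p = 8.11e-05). Its pattern over the 6 libraries resembled that of Kdr, lowest in replicate 2 of both fractions. Most of the other abundant genes rose by less: Igfbp7 by 1.71 ± 0.22, Itm2b by 1.30 ± 0.24, Ptma by 1.10 ± 0.21 and Mgp by 1.04 ± 0.22.

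Pigment epithelium genes took the largest share of Input among the lists of other cell types and had the lowest median of all the lists. The 21 listed members took 4.25%, 6.39% and 5.28% of the counts of Input and 1.35%, 1.02% and 1.13% of those of Positive. Of the 21, 19 were lower, with a median of -3.49. Among the 13 listed in both fractions 12 were lower, against 9.89% of all genes listed so. Rlbp1, a retinal-binding protein of the visual cycle (chromosome 7), stood at 1925, 4269 and 3412 CPM in Input and 173, 294 and 154 CPM in Positive. That was a change of -3.97 ± 0.36 (15.7-fold lower, adjusted p = 9.09e-06). Rpe65, the isomerase that regenerates the chromophore (chromosome 3), went from 1939, 3445 and 3004 CPM to 191, 339 and 138 CPM (-3.67 ± 0.36). Ttr, the carrier of thyroxine and retinol, was the most abundant, at 10264, 20092 and 11726 CPM in Input and still 1340, 2235 and 904 CPM in Positive (-3.23 ± 0.41). In these 3 genes replicate 2 was the highest library of each fraction, the reverse of Kdr and Aqp1. Timp3, a metalloproteinase inhibitor of Bruch's membrane that was put in the same list, did not follow: it stood at 7390, 7957 and 8701 CPM in Input and 9370, 6436 and 8122 CPM in Positive (-0.01 ± 0.27, adjusted p = 0.988). Mertk, a phagocytosis receptor, was at 0.31 ± 0.30.

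**Figure D4:**
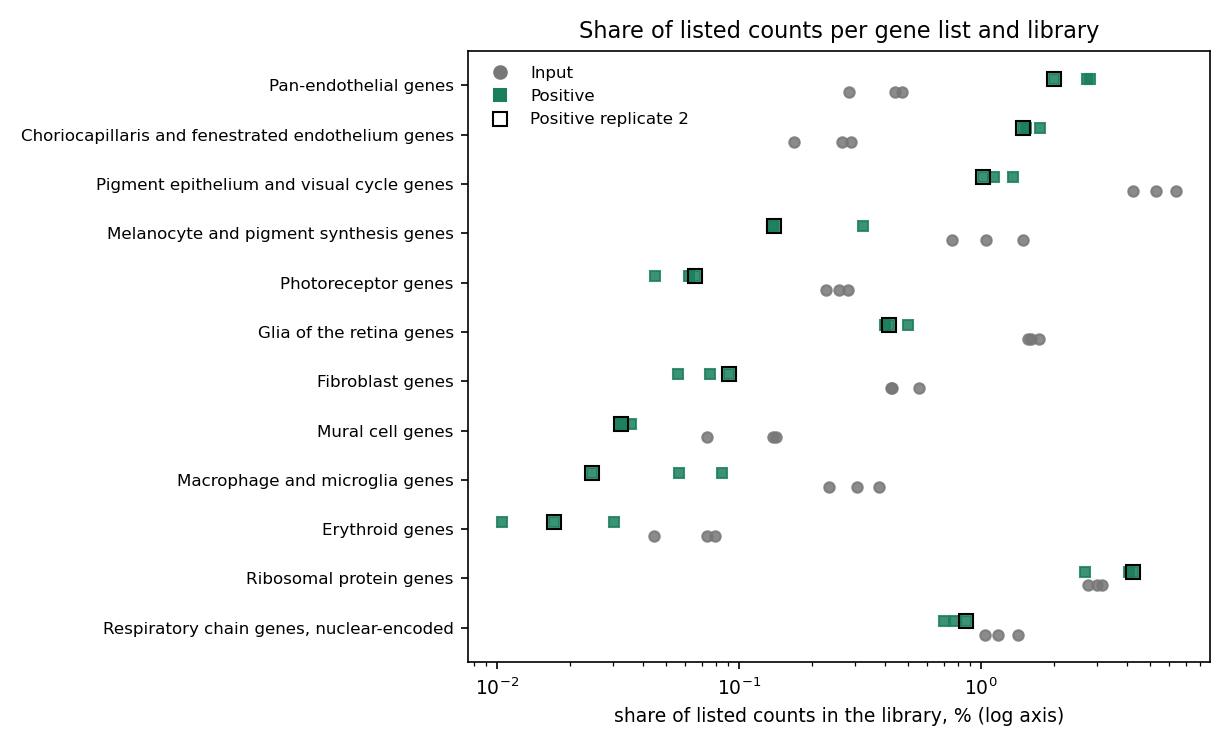
Share of the listed counts taken by each gene list in each of the 6 libraries, in percent on a log axis, with Input as grey circles, Positive as green squares and Positive replicate 2 outlined in black. Pan-endothelial and fenestrated endothelium shares are higher and the shares of pigment epithelium, melanocyte, photoreceptor, glia, fibroblast, mural, macrophage and erythroid genes are lower in each Positive library than in any Input library, while ribosomal protein shares overlap.

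Genes of melanocytes and pigment synthesis, called melanocyte genes here, fell by similar amounts to one another. The part of pigment epithelium in their values was not tested. Of 15 listed, 14 were lower, 4 of them listed in both fractions and 10 through Input alone, from -2.35 for Kit to -3.26 for Oca2, with a median of -2.79, and the exception was Ednrb (0.31 ± 0.26), an endothelin receptor gene that vessels also express. Dct, dopachrome tautomerase (chromosome 14), stood at 4565, 2361 and 3016 CPM in Input and 789, 433 and 232 CPM in Positive (-2.77 ± 0.41). Tyrp1, its relative, stood at 2654, 1062 and 1874 CPM in Input and 546, 102 and 142 CPM in Positive (-2.80 ± 0.55). In both genes replicate 1 was the highest library of each fraction. The pattern differed from that of Rlbp1 and Rpe65, which were lowest in Input replicate 1.

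The sequences before the start sites of 2 visual cycle genes and 2 melanocyte genes are shown for the 2 groups that fell together. They are the 150 bases before the RefSeq start site on GRCm38.p6, 5′ to 3′ on the gene's strand. Capitals mark the E-box CATGTG, the core bound by the pigment cell factor MITF, which reads CACATG when it lies on the other strand. They also mark the OTX and CRX core TAATCC, which on the other strand reads as the letters GGATTA. The windows are chr7:79387028-79387177 (minus strand) for Rlbp1, chr3:159599031-159599180 (plus) for Rpe65, chr7:87493513-87493662 (minus) for Tyr, the tyrosinase gene, and chr14:118052247-118052396 (minus) for Dct.
Rlbp1: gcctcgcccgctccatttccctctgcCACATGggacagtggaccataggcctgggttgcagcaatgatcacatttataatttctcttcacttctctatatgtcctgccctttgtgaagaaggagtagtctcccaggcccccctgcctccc
Rpe65: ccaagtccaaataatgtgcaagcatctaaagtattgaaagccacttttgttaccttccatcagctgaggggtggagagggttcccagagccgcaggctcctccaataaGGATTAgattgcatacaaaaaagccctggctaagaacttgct
Tyr: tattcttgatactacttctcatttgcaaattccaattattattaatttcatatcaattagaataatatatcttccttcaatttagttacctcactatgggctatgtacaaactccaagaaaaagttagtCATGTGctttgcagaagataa
Dct: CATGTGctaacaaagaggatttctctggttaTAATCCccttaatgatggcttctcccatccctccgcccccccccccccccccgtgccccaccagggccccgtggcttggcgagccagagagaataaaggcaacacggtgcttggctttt
Within 250 bases before the start, CATGTG stood in 6 of 14 melanocyte promoters (42.9%) and 4 of 23 pigment epithelium promoters (17.4%), against 6.95% of the promoters of all listed genes and none of the 16 pan-endothelial ones. TAATCC stood in 4 of the 14 (28.6%) and 3 of the 23 (13.0%), against 5.30% of all. Within the 150 bases shown, CATGTG stood in 5 of the 14 and 3 of the 23, against 4.04% of all. TAATCC stood there in 4 of the 14 and 1 of the 23, against 2.94% of all. Each sequence shown holds a match, though neither motif stood in most promoters of either list. Some genes have several start sites in the table, so promoters of 1 gene are not independent.

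Fibroblast and macrophage genes were lower in Positive too. Fibroblast genes took 0.468% ± 0.0728 of Input and 0.0740% ± 0.0175 of Positive, and 10 of 11 were lower, among them all 5 listed in both fractions. Dcn, decorin, went from 1664, 1290 and 982 CPM to 191, 266 and 80.6 CPM (-2.90 ± 0.38), and Col1a1, a chain of collagen I, fell by 2.57 on the log2 scale. Of 12 macrophage genes 10 were lower, with a median of -3.06. C1qa, a complement subunit, stood at 169, 187 and 200 CPM in Input and 20.8, 22.3 and 19.1 CPM in Positive (-3.17 ± 0.24). Cx3cr1 and Cd74, at -0.38 and -0.97, did not pass, and Cd74 was lower with the replicate block (adjusted p = 0.0220). All 10 genes that passed were listed through Input alone.

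Mural cells sit on the endothelium and share its basement membrane. Of 11 mural genes 7 were lower and none higher, and 9 were listed through Input alone. Pdgfrb, the receptor of pericytes, stood at 253, 166 and 280 CPM in Input and 37.7, 0 and 15.1 CPM in Positive (-3.47 ± 0.56). Notch3, the Notch receptor of mural cells, fell by 3.44 and Rgs5 by 3.07 on the log2 scale. Myh11, the myosin of smooth muscle, was at 26.3, 25.5 and 34.0 CPM in Input and 4.39, 35.0 and 50.4 CPM in Positive, with overlapping groups and a change of 0.00 ± 0.63. Acta2 was not among the listed genes.

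Photoreceptor genes took a small share of either fraction, which is not the share of retinal RNA. Over the genes listed for choroid, retina and brain alike, 4 photoreceptor genes took 0.145% of Choroid Input and 3.35% of Retina Input. In the choroid table the 15 listed photoreceptor genes took 0.257% ± 0.0266 of Input and 0.0576% ± 0.0111 of Positive. Of the 15, 12 were lower, 1 of these listed in both fractions and 11 through Input alone. Pdc, phosducin, which binds transducin, went from 93.7, 124 and 118 CPM to 26.7, 19.1 and 10.4 CPM (-2.55 ± 0.34). Gngt2, a transducin subunit of cones that was listed through Positive alone, was higher, at 19.7, 12.3 and 25 CPM against 47.5, 132 and 101 CPM (2.23 ± 0.40). Glial genes of the retina list fell in 5 of 7 cases, led by Sox9 (-3.01), Clu (-2.74) and Apoe (-2.38), genes that other cells of the choroid express as well, and Vim, vimentin, an intermediate filament shared by endothelium, rose by 0.94 ± 0.21. Sncg and Rbpms, named as ganglion cell genes, rose by 2.60 ± 0.36 and 1.75 ± 0.24, and Sncg was listed through Positive alone. Thy1, Trpm1 and Slc6a9 of the same list fell, Thy1 with a call that needed each of Input 1, Input 2, Positive 1 and Positive 3.

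In the list of Schwann cell and myelin genes Mal, a proteolipid of membrane rafts, stood apart. It stood at 167, 59.4 and 106 CPM in Input and 521, 418 and 697 CPM in Positive (2.30 ± 0.34, adjusted p = 0.000214), while Sox10, a transcription factor of Schwann cells and melanocytes, fell by 2.72 on the log2 scale and Mbp was at -0.28 ± 0.36. All 4 listed genes of corneal and lens epithelium fell, Krt5 by 2.86 and Cryab by 2.88. Ciliary and iris genes fell in 4 of 8 cases (Cpxm2 by 3.73, Slc4a5 by 3.27), and Aqp1 and Wfdc1 (1.48 ± 0.27) rose. Of 5 erythroid genes, all listed through Input alone, 4 fell, Hba-a1 from 177, 343 and 354 CPM to 24.5, 78.0 and 117 CPM (-2.02 ± 0.46), with the reservation on near-identical copies. The pan-leukocyte gene Ptprc fell by 2.31 on the log2 scale. Of 6 skeletal muscle genes Acta1 alone passed (-1.91 ± 0.58, adjusted p = 0.0218), and not without Input replicate 2 or 3 or Positive replicate 1. Muscle counts differed between replicates as much as between fractions, with Ckm at 16.4, 73.1 and 111 CPM in Input and 8.78, 87.5 and 42.3 CPM in Positive. No platelet gene was listed.

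The 15 largest decreases among well-expressed genes held several of the pigment epithelium list, and 11 of them were listed through Input alone. Slc39a12, a zinc transporter gene, stood at 76.1, 180 and 154 CPM in Input and 1.10, 0 and 7.54 CPM in Positive (-5.39 ± 0.62), a ratio that rests on 16 counts in Positive. Ermn (-4.33 ± 0.34), a cytoskeletal gene, Iqgap2 (-4.30), Slc6a20a, an imino acid transporter (-4.21), Pla2g5, a secreted phospholipase (-4.09), and Pon1, paraoxonase (-4.07), followed. The remaining 9 were Rdh5 and Rrh of the visual cycle (-4.04 and -3.95), Rlbp1, Adc, also called Azin2 (-3.99), the Wnt inhibitor Sfrp1 (-3.92), Tmem27, also called Cltrn (-3.89), Slc16a1, Col8a2, a collagen of basement membranes (-3.84), and the integrin Itgb8 (-3.82). Col8a2 was abundant in Input, at 1813, 2164 and 2055 CPM against 207, 113 and 95.1 CPM in Positive.

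Groups defined by RNA class moved less. Immediate early genes, which are switched on within minutes of a stimulus, were the exception: 8 of 9 rose, with a median of 1.53. Jun stood at 90.7, 81 and 105 CPM in Input and 365, 333 and 477 CPM in Positive (2.08 ± 0.22), and Ier2, Dusp1 and Nr4a1 rose by 2.42, 2.17 and 2.08. Of the 80 ribosomal protein genes listed in both fractions 12 were higher, against 33.1% of all genes listed so. Of all 83, 13 were higher, beside 16.3% of all listed genes, and none lower, with a median of 0.30. That count ranged from 4 to 32 when 1 library was left out and was 5, with 2 lower, without Positive replicate 2. Scaled on the genes at 50 or more in every Positive library, their median was -0.10, with 2 higher and 6 lower of 81. The largest after Rpl10a were Rps4y2 (1.44), listed through Positive alone, and Rpl7 (0.97). Translation factors had a median of 0.36, with 3 of 22 higher (7 with the replicate block), and a median of -0.05 on the other scaling. The 3 were among the 21 listed in both fractions, where 33.1% of all genes were higher. Secretory chaperones had a median of 0.08, with P4hb alone higher, a call that was lost without any of the Input libraries.

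Nuclear-encoded respiratory chain genes lay on the lower side: 22 of 76 were lower, beside 20.2% of all listed genes, and Ndufa8 was higher. Of the 54 listed in both fractions 13 were lower, beside 9.89% of all genes listed so. The other lower calls were among the 22 listed through Input alone, a class in which 27.8% of all genes were lower. The median of the 76 was -0.55, against -0.15 for all 1634 genes no longer than 90% of the 76. The median exon length of the respiratory chain genes, 977 bases, was close to that of ribosomal protein genes, 975. The part of length in these changes was not tested. The number of lower genes depended on single libraries, from 9 without Input replicate 2 or 3 to 35 without Positive replicate 2, and was 34 with the replicate block. Atp5b, a subunit of ATP synthase, stood at 882, 930 and 936 CPM in Input and 602, 506 and 570 CPM in Positive (-0.71 ± 0.19, adjusted p = 0.0108), and did not pass without Input replicate 3. The largest decreases were in Cox8b (-4.11 ± 0.84) and Cox6b2 (-3.02 ± 0.61), isoforms of restricted tissues that had at most 7.54 CPM in any Positive library. Of 51 mitochondrial ribosomal protein genes 2 were higher and 4 lower, and without Positive replicate 2 none was higher and 7 were lower. Mitochondrially encoded genes were not analysed here. Neat1, a nuclear RNA, fell by 1.46 on the log2 scale, and Malat1, at -0.55 ± 0.34, did not pass.

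Lars2 and Rn45s had the largest increases in the table, and the size of both rested on Positive replicate 2. Lars2 stood at 265, 768 and 108 CPM in Input and 278, 42132 and 1202 CPM in Positive (5.26 ± 1.49, adjusted p = 0.0149). Without replicate 2 its change was 0.97 and did not pass (adjusted p = 0.293). Rn45s stood at 3732, 7882 and 1429 CPM in Input and 3509, 147927 and 10660 CPM in Positive (3.64 ± 1.13, adjusted p = 0.0243), and at 0.70 without replicate 2 (0.377). In both genes the groups overlapped: Positive replicate 1 lay below Input replicate 2. Of the other 18 aminoacyl-tRNA synthetase genes Wars, the cytosolic tryptophanyl enzyme that interferon induces, was higher (1.23 ± 0.30). Of the 2767 calls made with 6 libraries, 69 moved by more than 1.5-fold without Positive replicate 2 and none changed sign.

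**Figure D5:**
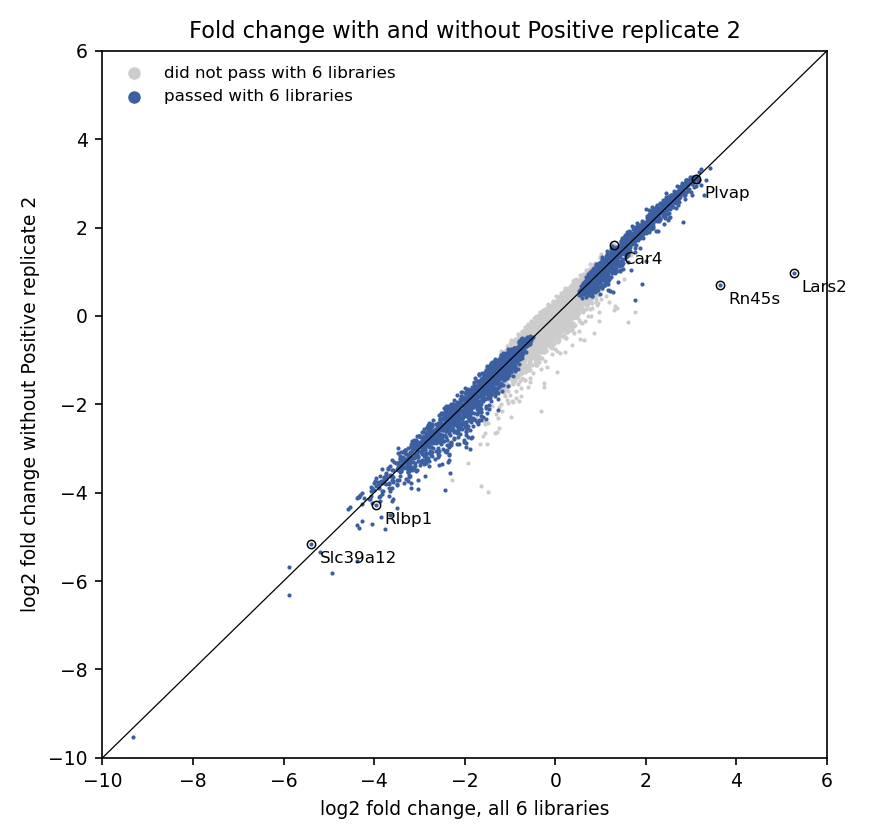
Log2 change of each listed gene with all 6 libraries (x axis) and without Positive replicate 2 (y axis), blue where the gene passed with 6 libraries, with the diagonal marking equal changes. Lars2 and Rn45s lie far below the diagonal at 0.97 and 0.70, while Plvap and Rlbp1 lie close to it.

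The choroid was then set beside the other tissues, over the 7270 genes listed in the 3 tables, by testing the difference of the changes. Of these, 3272 (45.0%) changed differently in choroid and retina and 3769 (51.8%) in choroid and brain. Plvap rose more in choroid than in retina, by 2.67 ± 0.33 on the log2 scale (adjusted p = 5.36e-06), and than in brain, by 2.34 ± 0.32 (1.04e-05), with changes of 0.45 and 0.78 in those tissues. Cdh5 rose by 6.40 in retina and 4.95 in brain, and its change in choroid was smaller than in either (adjusted p = 3.28e-06 and 0.000306). Of 19 pan-endothelial genes the change in choroid was smaller than in retina for 16 and than in brain for 19. Over these genes the list took 0.42% of Choroid Input, 0.0371% of Retina Input and 0.036% of Brain Input, and 2.56%, 0.654% and 0.94% of the Positive fractions. The starting share in Input was thus higher in choroid, and its part in the smaller change was not tested. Of the barrier genes 18 of 19 had a smaller change in choroid than in retina and 19 of 19 than in brain, with median differences of -4.35 and -4.18. Mfsd2a fell in choroid and rose by 5.19 in retina and 2.70 in brain. The comparisons with retina and with brain share the choroid libraries. Depth differed too, from 12325658 to 43219831 listed counts in the other 12 libraries.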

How the data were processed

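Directional RNA-seq libraries (NEBNext Ultra II Directional kit, per the labels' protocols) were made from 3 Input and 3 Positive samples of choroid. The deposited table gives, per the file headers, raw estimated counts per gene and normalised log2 values, for genes with at least 50 counts in all samples of at least 1 group. Build mm10 and DESeq are named, without versions, per the submitters' processing notes. For the aligner, the counting tool and the use of strand in counting, no statement was found in the labels or headers. The deposited log2 values equal the raw value over a factor per sample, less the median of the Input samples, within rounding. They were used only to recover those factors. No column belonged to other samples (0).

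The estimated counts were rounded to whole numbers, scaled by TMM and tested with edgeR 4.0.16 (quasi-likelihood test, R 4.3.3) on the 6 choroid libraries without covariates, with Benjamini-Hochberg adjustment over all 7569 genes and a threshold of 0.05. The filter of edgeR (minimum count 10) removed 0 genes, and 4 residual degrees of freedom were left. Differences between tissues are interaction terms of a fit of all 18 libraries. The steps were tested on simulated data. Alternatives, 18 in all, were other scalings, the DESeq2 1.42.0 Wald test, filters, each library left out, a replicate block and stricter thresholds. Same-numbered Input and Positive libraries came from 1 homogenate per the labels, and their deviations correlated at 0.188, 0.202 and 0.137 (limit 0.1), so the numbers pair the samples. The changes, SE and adjusted p-values of the report leave this pairing out, except where the replicate block is named. With the block 2998 genes passed, against 2767 without it, and 2726 passed in both with the same sign. Depth was lowest in Positive replicate 2 (713733 counts).

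Genes were named by rule: the 15 largest increases and the 15 largest decreases among genes that passed, did not overlap and reached the median level, the 10 highest levels per kilobase among genes that rose, the 8 largest changes among genes listed through Positive alone, and of each of 42 lists the first 3 members, the 3 largest changes and members called against the majority. Other members named from a list were chosen after their values were seen. A few genes that the rule selects are not reported here. The comparison, its lists and this rule were chosen with earlier results of these data known. Of the gene identifiers 99.9% matched RefSeq, which gave gene positions, and 6083 genes had a promoter in the table used. Exon lengths came from the GENCODE annotation of GRCm38 and were found for 7513 genes (99.3%).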

Additional observations from a re-analysis of the deposited data

Results flagged for a closer look

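The difference between tissues was tested as an interaction over the genes that the 3 tables share. Of these, 3272 changed differently in choroid and retina and 3769 in choroid and brain. The values here are the change in choroid less the change in the other tissue, on the log2 scale, for genes with large differences.

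Below both tissues stood Edn3, an endothelin gene (-8.73 against retina, -7.66 against brain). Against retina, large differences below 0 were also seen for the thyroid hormone transporter Slco1c1 (-8.06), the retinol transporter Stra6 (-7.42), Sema3c (-7.25) and the organic anion transporter Slc22a8 (-7.17). Against brain they were Wfikkn2 (-7.62), Fmod, a matrix proteoglycan gene (-7.47), the GABA transporter Slc6a13 (-7.41) and Mfsd7c, also called Flvcr2 (-7.39).

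Above both tissues stood Aqp1, the water channel gene (3.66 against retina, 3.81 against brain), and Lars2 (5.37 and 4.46). Rn45s differed from retina by 3.98. Without Choroid Positive replicate 2 the differences of Lars2 (adjusted p = 0.370 and 0.890) and of Rn45s against retina (0.291) did not pass. The others above retina were the transcription factor Prdm1 (3.61), Ramp3 (3.53) and the disulfide isomerase gene Pdia5 (3.50). Those above brain were Hecw2 (3.71), Prickle2 (3.59), Six3 (3.51) and the adhesion molecule Mcam (3.40).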

How the results depend on the processing

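With the replicate number as a block, 1350 genes were higher and 1648 lower in Choroid Positive, and beside the values given in the report for Vcam1, Lamb1, Cd74, translation factors and respiratory chain genes the paired fit changed no other call of a gene named in the report. Counts moved by less than 1.5 times for lipid uptake (4 lower), Wnt (6 higher), fibroblast (11 lower) and ribosomal protein genes (15 higher, with 2 lower in place of 0), and mitochondrial ribosomal protein genes had 6 lower in place of 4. It added calls for Ttn, Yars, Kcnq1ot1, Aars, Fau and Eif3a. Leaving out 1 library gave 944 to 1332 higher and 1223 to 1709 lower genes, from fewer samples. On the genes at 50 or more in every Positive library, 712 were higher and 649 lower, from fewer genes and another scale, and on genes at or above the median level 860 were higher and 946 lower, where the same genes gave 1015 and 739. A minimum log2 change of 1 left 818 higher and 1320 lower. At an adjusted p under 0.01, 969 genes had a larger change in choroid than in retina. Of 253 genes that the naming rule selects, 204 kept their side of the threshold under every alternative that could be fitted for them and none that passed changed sign. The 2 restricted gene sets held 154 and 197 of the 253.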
